A study of Homo sapiens with 9 samples.

Results

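The comparison asked what FGF3 and FGF10 added to human embryonic stem cell (hESC) cultures that were differentiating in the same medium without them. It used 6 of the 9 arrays of the series, all from day 14: 3 of the group FGF3+10 and 3 of the group DFNB, each with 1 array of the established hESC lines Shef3, H14 and Shef1. The FGF3+10 cultures received FGF3 and FGF10 at 50 ng/ml each. DFNB cultures had the medium alone, a 1:1 mix of DMEM and F12 with the serum-free supplements N2 and B27. Cells of both groups were seeded on laminin as a suspension and differentiated for 14 days, and no allele or transgene is named for any line. The 3 hESC arrays of day 0, from cells grown on mouse feeder cells with 4 ng/ml bFGF, are given only as levels beside the day 14 values. For each line the DFNB value was subtracted from the FGF3+10 value, so every gene had 3 within-line differences that share no array. The comparison covered 19775 genes, of which 8418 had a mean of 6 or more over the 6 arrays. Just below that level lay IFT172, with differences of -0.66 (Shef3), 0.26 (H14) and -0.03 (Shef1), and just above it POP1, with -0.08, -0.12 and 0.04. Values are logarithms and their base is taken as 2, so a difference of 1 stands for a doubling if that base holds. A medium was tried once per line, and differences between lines and between single cultures cannot be told apart.

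Fibroblast growth factors (FGFs) are secreted proteins that bind receptor tyrosine kinases of the FGFR family together with heparan sulfate and signal mainly through the RAS to ERK cascade. Cells that receive the signal transcribe feedback genes such as SPRY, SPRED and DUSP6 and the ETS factors ETV4 and ETV5. FGF3 and FGF10 act chiefly through the epithelial isoform of FGFR2, and in the embryo they help to induce the otic placode, from which the inner ear forms. FGFs also take part in neural induction and in the patterning of the eye field, the lens and mesenchyme.

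In each of the 3 lines the culture with FGF3 and FGF10 had lower values of collagen VI and other matrix genes and higher values of FZD5, a WNT receptor of the early eye field, and of SOX2, a factor of pluripotent and neural cells. FZD5 was higher by 1.64 ± 0.20 (moderated SE of limma, n = 3 pairs), SOX2 by 0.80 ± 0.19, and COL6A3 was lower, at -1.64 ± 0.24. No gene passed the test, however: limma with the cell line as a block called 0 of 19775 genes at a Benjamini-Hochberg adjusted p below 0.05 (0.0% called), and the lowest adjusted p was 0.942. At an unadjusted p below 0.05 there were 988 genes, or 5.0%. All differences named here are therefore values, not calls.

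Most of the variation between the day 14 arrays lay between cell lines. Among the genes with a mean of 6 or more, 77.8% of the summed squared deviation lay there, on 2 degrees of freedom. A further 7.7% lay between the media, on 1 degree of freedom, and 14.4% in how the difference between media varied over the lines, on 2. For each degree of freedom the last 2 shares were about equal. Across these genes, which are not independent replicates, the differences in H14 and Shef1 correlated at a Pearson r of 0.661 and a Spearman rho of 0.597. Those in Shef3 correlated negatively with both, at r = -0.433 (rho = -0.505) with H14 and r = -0.300 (rho = -0.365) with Shef1. The differences spread most widely in H14, with an SD across genes of 0.56, against 0.35 in Shef3 and 0.38 in Shef1. In H14 161 genes were higher and 354 lower by 1 or more, in Shef3 50 and 115, and in Shef1 18 and 228. The most frequent pattern, in 36.5% of the genes, was lower in Shef3 and higher in H14 and Shef1, and a further 16.9% had the reverse. The same direction in all 3 lines was rarer: 494 genes were higher in each (5.87%) and 1130 lower in each (13.4%). These shares count signs of any size. The median difference over the same genes was itself -0.11 in Shef3, 0.07 in H14 and 0.03 in Shef1. After quantile normalisation 8.61% were lower in each line. How far the other shares rest on these medians was not tested.

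**Figure D1:**
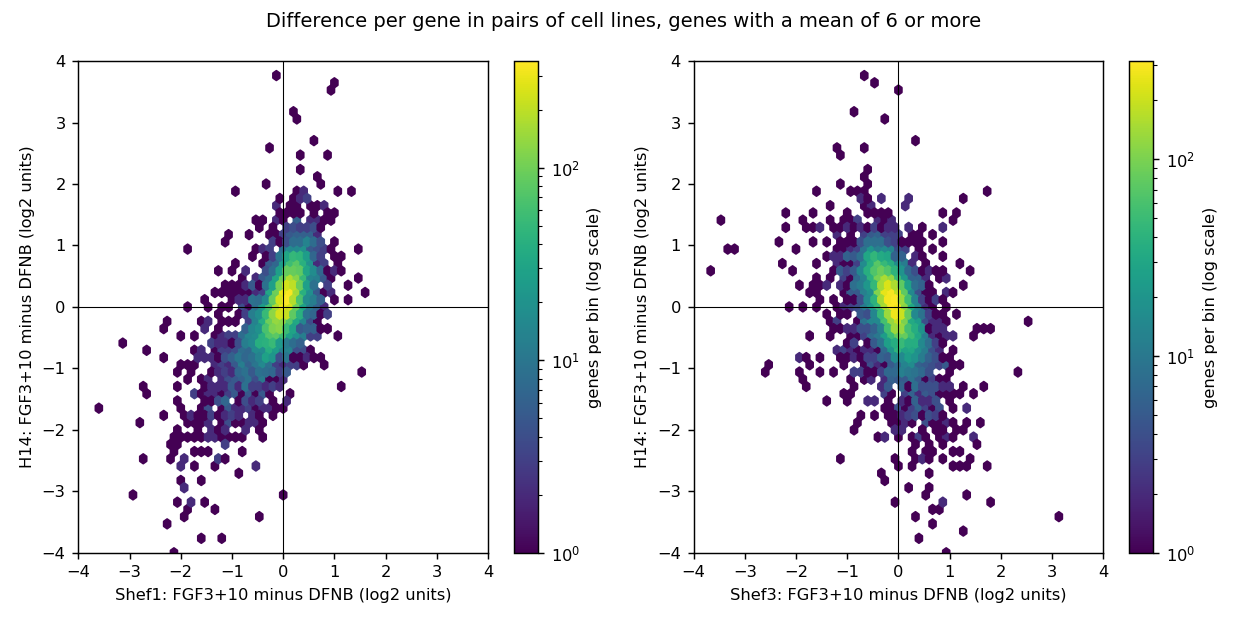
The difference between FGF3+10 and DFNB of each gene with a mean of 6 or more, in log2 units, for H14 against Shef1 (left) and H14 against Shef3 (right), with shading for the number of genes per bin on a log scale. The cloud runs upwards on the left (r = 0.661) and downwards on the right (r = -0.433), and 8 genes lie beyond the axis limits of 4.

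Of the measures of array quality, the hybridisation spike-ins differed most between the media. The 3' minus 5' signal of GAPDH differed between FGF3+10 and DFNB by -0.04 to 0.10 within lines and that of ACTB by -0.16 to 0.15. Poly-A spike-ins differed by -0.19 to 0.12 and hybridisation spike-ins by -0.28 (Shef3), -0.45 (H14) and 0.13 (Shef1). Between lines the poly-A spike-ins lay further apart, at 7.43 and 7.44 in Shef1 against 5.04 to 5.39 in Shef3 and H14. In the variation between lines, cell line and sample handling therefore cannot be told apart. Over the 8418 genes the median difference was -0.11 (Shef3), 0.07 (H14) and 0.03 (Shef1), and -0.02, 0.09 and 0.01 after quantile normalisation.

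The genes with the largest difference shared by all 3 lines are shown first by their promoters, since they are the ones the comparison turns on. They are ranked by the smallest of their 3 within-line differences. The lines below give the 250 bases before the transcription start, on the coding strand of the gene and 5' to 3', for the first 2 genes that were higher and the first 5 that were lower, from RefSeq (GRCh38.p14). All 7 had an entry in the table used. Capitals mark matches, on either strand, to the GC box GGGCGGGG, the TATA box TATAAA, the AP-1 site TGANTCA, the ETS core GGAAGT, the TCF core CTTTGA and the CArG box of serum response factor.
FZD5, chr2:207769907-207770156, minus strand: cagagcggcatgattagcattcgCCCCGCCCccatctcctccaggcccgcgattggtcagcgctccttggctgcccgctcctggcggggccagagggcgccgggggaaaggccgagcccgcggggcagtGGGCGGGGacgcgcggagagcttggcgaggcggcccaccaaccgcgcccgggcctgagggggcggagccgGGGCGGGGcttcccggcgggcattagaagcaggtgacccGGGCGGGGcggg
SOX2, chr3:181711675-181711924, plus strand: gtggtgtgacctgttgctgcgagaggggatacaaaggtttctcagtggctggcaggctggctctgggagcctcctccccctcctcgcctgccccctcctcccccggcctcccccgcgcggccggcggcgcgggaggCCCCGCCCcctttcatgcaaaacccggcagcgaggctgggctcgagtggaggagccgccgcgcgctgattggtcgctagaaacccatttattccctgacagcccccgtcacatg
COL6A3, chr2:237414165-237414414, minus strand: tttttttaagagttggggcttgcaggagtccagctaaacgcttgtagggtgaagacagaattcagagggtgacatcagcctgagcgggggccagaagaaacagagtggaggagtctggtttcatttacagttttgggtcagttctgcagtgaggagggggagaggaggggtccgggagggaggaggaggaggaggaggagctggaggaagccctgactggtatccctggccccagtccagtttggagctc
TGFBI, chr5:136028738-136028987, plus strand: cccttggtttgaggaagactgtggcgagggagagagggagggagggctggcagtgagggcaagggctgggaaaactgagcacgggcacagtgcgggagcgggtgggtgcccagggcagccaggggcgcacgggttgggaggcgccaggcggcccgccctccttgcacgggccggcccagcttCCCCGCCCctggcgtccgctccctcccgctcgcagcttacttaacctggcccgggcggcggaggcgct
MYL7, chr7:44141333-44141582, minus strand: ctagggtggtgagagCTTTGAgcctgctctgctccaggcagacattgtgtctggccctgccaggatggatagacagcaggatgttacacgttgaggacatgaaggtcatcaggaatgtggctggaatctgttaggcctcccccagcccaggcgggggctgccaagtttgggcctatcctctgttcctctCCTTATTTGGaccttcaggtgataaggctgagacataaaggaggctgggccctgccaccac
COL6A2, chr21:46097862-46098111, plus strand: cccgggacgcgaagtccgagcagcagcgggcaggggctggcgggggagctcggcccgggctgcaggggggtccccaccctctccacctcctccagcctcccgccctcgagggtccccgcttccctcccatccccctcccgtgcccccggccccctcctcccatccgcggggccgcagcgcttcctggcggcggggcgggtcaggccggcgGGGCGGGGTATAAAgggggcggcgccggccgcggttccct
F3, chr1:94541760-94542009, minus strand: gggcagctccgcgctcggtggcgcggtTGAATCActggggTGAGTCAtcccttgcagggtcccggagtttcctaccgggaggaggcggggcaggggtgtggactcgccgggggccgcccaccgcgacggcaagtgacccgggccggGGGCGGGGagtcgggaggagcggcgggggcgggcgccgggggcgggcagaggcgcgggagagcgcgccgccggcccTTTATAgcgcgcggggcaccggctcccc
Over all 35116 windows of this length in the table, 21.8% held the GC box, 10.7% the TATA box, 6.57% the AP-1 site, 19.5% the ETS core, 11.2% the TCF core and 1.16% the CArG box. FZD5 held 4 GC boxes, SOX2 and TGFBI 1 each, and COL6A3 no match to any of the letters searched. MYL7 held a CArG box that starts 61 bases before the transcription start and a TCF core. COL6A2 held a GC box directly followed by a TATA box, and F3 held a GC box, a TATA box and 2 AP-1 sites. No matches overlapped, and none of the 7 windows held the ETS core. A match says only that the letters are there.

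FZD5 led the genes that were higher in all 3 lines. Its DFNB values were 5.09 in Shef3, 6.52 in H14 and 9.50 in Shef1, and its FGF3+10 values were 6.81, 8.36 and 10.87. It was the only gene with a mean of 6 or more that was higher by at least 1 in every line (0.0119% of the 8418). The groups overlapped, since the lines lay far apart, but each line had its higher value with FGF3 and FGF10. The differences were 1.72, 1.84 and 1.36, and the mean of 1.64 had a 95% interval of 1.08 to 2.20 (limma, unadjusted for the number of genes; adjusted p = 0.942). At day 0 FZD5 stood at 10.51, 10.56 and 11.24, above every day 14 value of the same line.

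SOX2 read 7.91 in Shef3, 8.92 in H14 and 10.63 in Shef1 in DFNB, and 8.71, 9.95 and 11.20 with FGF3 and FGF10. The day 0 values were 11.13, 11.04 and 11.11, so in Shef3 and H14 the FGF3+10 culture lay between day 0 and DFNB. A second SOX2 probe set with a mean of 7.80 gave differences of 0.94, 1.11 and 0.94, beside 0.80, 1.02 and 0.57 for the one used. PTPRZ1, a receptor tyrosine phosphatase of neural progenitors and glia, went from 5.40 to 6.22 in Shef3, from 7.35 to 8.21 in H14 and from 9.63 to 10.19 in Shef1. Its day 0 values were 9.61, 9.77 and 9.64. Its mean difference was 0.74 ± 0.18 (moderated SE, n = 3 pairs).

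CYP26A1, an enzyme that degrades retinoic acid, read 7.69, 9.29 and 9.40 in DFNB (Shef3, H14, Shef1) and 9.13, 9.87 and 9.88 with FGF3 and FGF10, with the largest difference in Shef3. At day 0 it stood at 10.40, 10.72 and 10.39, above every day 14 value. SHISA2, which holds back the maturation of WNT and FGF receptors, read 8.34, 8.83 and 9.33 in DFNB and 8.85, 9.16 and 10.66 with the FGFs. Its day 0 values, 7.21, 8.28 and 8.28, were lower. DLL1, a NOTCH ligand, was higher by 0.35, 0.43 and 0.79, and CALB1, a calcium buffer of neurons, by 0.37, 2.72 and 0.54, mostly through H14. The other 7 of the 14 leading genes were SCLY, COL13A1, MIR302B, HERC5, SLC6A6, GATM and AKR1C1, and the smallest within-line difference ran from 0.32 for AKR1C1 to 0.39 for SCLY. With the mean of all probe sets of a gene in place of the brightest, DLL1, SLC6A6 and GATM no longer had 1 direction in all 3 lines. The probe set annotated to MIR302B reads a primary transcript rather than the mature microRNA. It stood at 1.51, 7.74 and 10.00 in DFNB and at 2.64, 9.31 and 10.33 with the FGFs, after 10.80, 10.82 and 11.02 at day 0. Only 3 genes with a mean of 6 or more were higher by at least 0.5 in every line (0.0356%), namely FZD5, SOX2 and PTPRZ1.

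**Figure D2:**
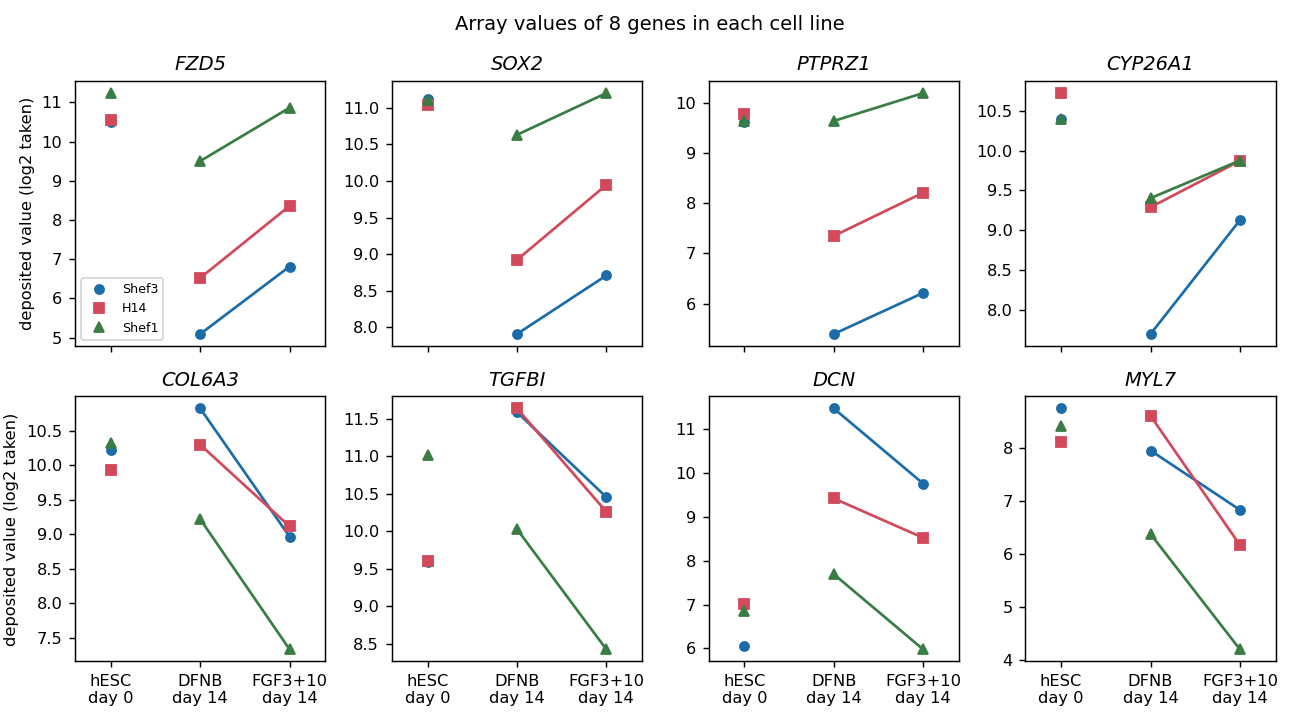
Array values, on a log scale taken as log2, of 4 genes that were higher with FGF3 and FGF10 in each line (top) and 4 that were lower (bottom), with 1 point per line at day 0, in DFNB and in FGF3+10; lines join the day 14 cultures of the same cell line. Every joined pair runs upwards in the top row and downwards in the bottom row, while the cell lines stay apart, as for FZD5 from 5.09 to 9.50 in DFNB.

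Genes lower with FGF3 and FGF10 in every line were more numerous, with 38 lower by at least 0.5 (0.451%) and 5 by at least 1 (0.0594%), and matrix genes led them. COL6A3, a chain of collagen VI, read 10.82 in Shef3, 10.29 in H14 and 9.22 in Shef1 in DFNB and 8.96, 9.11 and 7.34 with the FGFs. Its day 0 values were 10.22, 9.93 and 10.32. Its lowest DFNB value lay above the highest FGF3+10 value, so the groups did not overlap. How many of all genes were separated in this way was not counted, so the separation of single genes is given as a description only. The mean difference was -1.64 ± 0.24 (moderated SE, n = 3 pairs), with an adjusted p of 0.942 (limma).

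The other 2 main chains of collagen VI had the same direction. COL6A2 read 8.55, 8.59 and 5.21 in DFNB and 7.13, 7.06 and 4.10 with the FGFs, and COL6A1 read 9.91, 9.98 and 9.27 against 8.76, 9.16 and 8.35. At day 0 COL6A2 stood at 8.51, 7.64 and 7.32, and COL6A1 at 10.38, 10.03 and 10.57, above every day 14 value of the same line. Their mean differences were -1.35 ± 0.19 and -0.96 ± 0.18, and with the mean of its probe sets COL6A1 was at -0.36. For COL6A1 the groups did not overlap, and for COL6A2 they did, because Shef1 was low in both media. Collagen VI forms beaded filaments around mesenchymal cells and muscle.

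TGFBI, a secreted matrix protein induced by TGF-beta, read 11.59, 11.64 and 10.03 in DFNB and 10.45, 10.26 and 8.43 with the FGFs. Its day 0 values were 9.59, 9.61 and 11.02. DCN, the matrix proteoglycan decorin, read 11.48, 9.42 and 7.70 against 9.76, 8.52 and 5.98, and its other 3 probe sets with a mean of 6 or more were also lower in every line. At day 0 DCN stood at 6.06, 7.01 and 6.86. TWIST1, a mesenchymal transcription factor, read 9.62, 9.07 and 7.29 in DFNB and 8.72, 7.83 and 4.54 with the FGFs, with a difference of -2.74 in Shef1 against -0.90 in Shef3. PCOLCE, which helps to process procollagen, was lower by 0.85, 0.87 and 1.32 in the 3 lines.

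Outside the matrix, MYL7, the atrial myosin light chain, read 7.95, 8.60 and 6.38 in DFNB and 6.83, 6.17 and 4.21 with the FGFs, a mean difference of -1.90 ± 0.34 (SE, n = 3 pairs). F3, tissue factor, read 7.63, 7.06 and 6.14 against 6.60, 5.56 and 5.02, after 7.39, 6.98 and 7.69 at day 0. WNT2B, a WNT ligand, read 9.15, 6.67 and 7.32 against 7.86, 5.67 and 6.42, after 4.63, 3.53 and 3.37 at day 0. The chemokine CXCL14 had a mean difference of -1.06 ± 0.18, the LIM protein LMCD1 of -1.39 ± 0.27, the hypoxia-inducible factor EPAS1 of -1.24 ± 0.27 (-0.71 with the mean of its probe sets) and ZFHX4-AS1 of -0.95 ± 0.17. Of 6 further probe sets with a mean of 6 or more for these 14 genes, 6 were lower in every line, and of 3 for the 14 higher genes, 3 were higher in every line.

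Mesenchyme and matrix genes, a list of 33, had the lowest median of any list with at least 3 genes at a mean of 6 or more. All 33 were measured and 30 had such a mean; MGP, FBLN5 and TWIST2 did not. Of the 30, 22 were lower in all 3 lines by any amount and 0 were higher in all 3, beside the 13.4% and 5.87% of all such genes given above. By at least 0.5 in each line 8 were lower, beside 0.451% of all such genes. The list was chosen with earlier results of these data known, so these counts describe it and are no independent test. The median difference was -0.96, against 0.00 over the 8418 genes; for single lines it was -0.21 (Shef3), -1.17 (H14) and -1.22 (Shef1), and without one line in turn -1.28 to -0.74. Averaged over the 30 genes, the DFNB arrays stood at 10.51 in Shef3, 10.52 in H14 and 9.12 in Shef1, and the FGF3+10 arrays at 10.18, 9.25 and 7.88. The day 0 arrays stood at 8.91, 8.96 and 9.11. No member passed over all genes.

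In Shef3 the list was split. Besides collagen VI, TGFBI, DCN and TWIST1, the genes lower in every line included LUM, the proteoglycan lumican, with -0.75, -0.86 and -2.36, and IGFBP3, an IGF-binding protein, with -0.74, -1.72 and -1.28. Fibrillar collagens were lower by less in Shef3: COL1A1 had differences of -0.43, -0.95 and -0.43, COL3A1 of -0.38, -0.78 and -1.70 and COL5A1 of -0.43, -1.77 and -1.81. FN1, fibronectin, had 0.00, -1.05 and -0.91. Its Shef3 value lay just below 0 before rounding, so FN1 is counted as lower in every line. After quantile normalisation the Shef3 difference of FN1 was 0.08.

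The 8 members not lower in every line were FBN1, TAGLN, ACTA2, PDGFRB, LOX, S100A4, BGN and PRRX1, and each of these was higher in Shef3 and lower in H14 and Shef1. LOX, which crosslinks collagen, had differences of 0.28, -3.40 and -1.97, TAGLN, an actin-binding protein of smooth muscle, of 0.40, -1.79 and -1.49, and S100A4 of 1.06, -0.46 and -0.20. In H14 and Shef1 taken without Shef3, 30 of 30 members were lower in both lines, beside 30.4% of all genes. Without H14, and likewise without Shef1, 22 of 30 were lower in both remaining lines, beside 24.4% and 21.3%. Further probe sets of the list with a mean of 6 or more numbered 36 for 19 genes, of which 23 were lower in every line and 0 higher in every line. They read the same genes on the same arrays and are not independent of the ones used. In bulk samples such as these, fewer mesenchymal cells and less RNA per cell cannot be told apart.

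**Figure D3:**
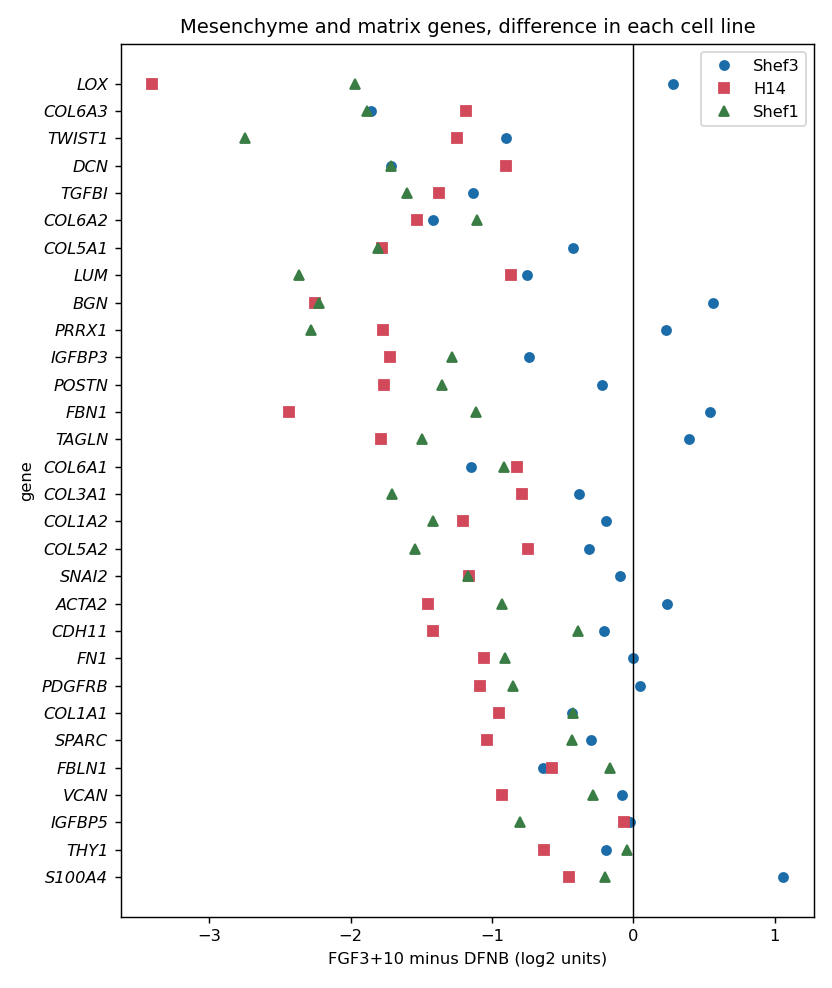
The difference between FGF3+10 and DFNB, in log2 units, of the 30 mesenchyme and matrix genes with a mean of 6 or more, with 1 point per cell line and genes ordered by their mean difference. The H14 and Shef1 points all lie left of 0, and 8 of the Shef3 points lie to the right of it.

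Collagen chains as a family, taken by symbol after the values were seen, did not all have that direction. Of 43 measured chains 22 had a mean of 6 or more. Of the 22, 9 were lower in all 3 lines and 1, COL13A1, was higher in all 3, beside 13.4% and 5.87% of all such genes. The median difference of the 22 was -0.64. The basement membrane chain COL4A1 had differences of 0.24, -1.47 and -0.78, and the cartilage chain COL2A1 of -0.23, 0.50 and -0.27.

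The feedback genes of the FGF pathway had no common direction across the 3 pairs of cultures. SPRY4 read 4.88 in Shef3, 6.50 in H14 and 5.51 in Shef1 in DFNB and 6.38, 6.69 and 4.54 with FGF3 and FGF10. DUSP6, a phosphatase that switches off ERK, read 7.59, 8.82 and 9.23 against 8.81, 9.18 and 8.26. ETV5 read 7.09, 8.14 and 7.17 against 8.04, 8.36 and 6.19. Each was thus higher with the FGFs in Shef3 and H14 and lower in Shef1, which had the highest DUSP6 value of the DFNB arrays and the lowest of the FGF3+10 arrays.

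The same order held for SPRY1, SPRY2 and ETV4. Of these 6 genes 6 were higher in Shef3, by 0.90 to 1.50, and 6 in H14, by 0.19 to 0.61, while 0 were higher in Shef1, where the differences ran from -1.56 to -0.14. Over all genes with a mean of 6 or more, 3.43% were higher in Shef3 and H14 and lower in Shef1. Their mean differences were close to 0, such as 0.20 ± 0.49 for DUSP6 (95% interval -1.21 to 1.62, limma, adjusted p = 1) and 0.24 ± 0.55 for SPRY4. The directions of the 6 genes in each line were the same after quantile normalisation and with the mean of probe sets. The other 2 probe sets of DUSP6 gave 1.20 and 1.78 in Shef3, 0.52 and 0.46 in H14 and -1.22 and -1.01 in Shef1. For ETV5 the other probe set with a mean of 6 or more gave 1.19, -0.16 and -0.42. Fainter ETV5 probe sets gave -0.14, -0.21 and 1.84 in H14, so the direction of ETV5 in H14 depended on the probe set. ETV4 lay below 6 on most arrays, with 4.19, 5.59 and 3.72 in DFNB and 5.16, 6.10 and 2.16 with the FGFs. With day 14 means of 4.49 and 5.75, ETV4 and SPRY4 were outside the set of genes behind the 3.43%. Whether the lines differ in this response was not tested, since each line has 1 array per medium.

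Across the whole list of 32 feedback and ERK target genes, 31 were measured and 22 had a mean of 6 or more. Of the 22, 0 were higher and 0 lower in all 3 lines, and the median difference was -0.04 (Shef3 0.37, H14 -0.15, Shef1 -0.36). Of these genes 8 were higher in Shef3 and H14 and lower in Shef1, as were 3.43% of all genes, and 11 were higher in Shef3 alone, as were 16.9%. Early response genes of the list varied. IER3 had differences of 0.60, -1.61 and -1.41, JUNB of 0.09, -1.24 and -1.07 and EGR1 of 0.24, -1.15 and -0.92, lower in H14 as well as in Shef1. IER2 had 0.05, 0.03 and -0.30, and FOS, with a mean below 6, had -0.37, -0.57 and -2.73. SPRED1, another brake on the RAS to ERK cascade, had 0.04, 0.21 and -0.12.

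**Figure D4:**
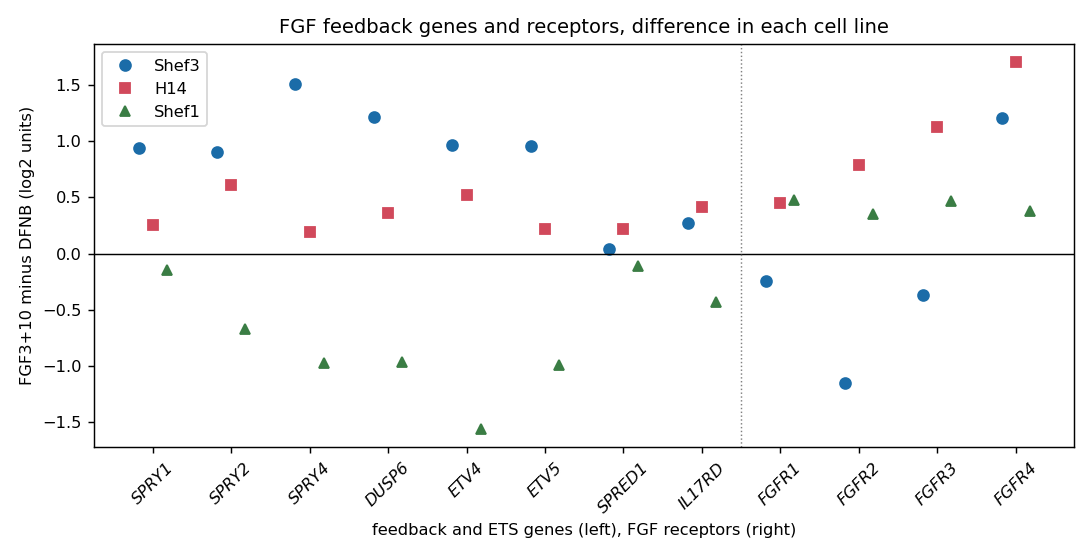
The difference between FGF3+10 and DFNB, in log2 units, of 8 feedback and ETS genes and the 4 FGF receptors, with 1 point per cell line. For SPRY1, SPRY2, SPRY4, DUSP6, ETV4 and ETV5 the Shef3 and H14 points lie above 0 and the Shef1 points below it.

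Receptors and co-receptors gave 2 genes lower in all 3 lines and 0 higher among 19 with a mean of 6 or more (23 of 24 were measured), beside 13.4% and 5.87% of all such genes. The 2 were the heparan sulfate proteoglycans SDC4, with a mean difference of -0.27, and GPC6, with -0.16. FGFR2, the main receptor of FGF3 and FGF10, read 9.43, 8.45 and 9.03 in DFNB and 8.27, 9.23 and 9.39 with the FGFs, lower in Shef3 alone. FGFR1 had differences of -0.24, 0.45 and 0.48 and FGFR3 of -0.37, 1.12 and 0.47, with the same split. FGFR4 differed from them: it read 2.53, 3.55 and 5.41 against 3.73, 5.25 and 5.79 and was higher in every line, by 1.10 ± 0.33 on average (adjusted p = 0.959), at values below 6. With values below 4 set to 4 the mean was 0.54 and the difference in Shef3 was 0. Over all 19775 genes, whatever their level, 9.4% were higher in every line and 12.5% lower. ESRP1, a splicing regulator that favours the epithelial FGFR2 isoform, had -0.75, 0.94 and 0.33. These probe sets do not tell the isoforms of FGFR2 apart.

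Of 22 FGF ligand genes 3 had a mean of 6 or more, FGF2, FGF11 and FGF13. FGF2 read 4.59, 5.31 and 8.17 in DFNB and 5.37, 5.78 and 8.10 with the FGFs. The genes of the added proteins themselves were low in both media: FGF3 lay between -3.89 and -1.32 and FGF10 between -1.04 and 2.91 on the day 14 arrays. FGF8 was highest in H14, at 4.46 in DFNB and 6.36 with the FGFs.

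Otic and preplacodal genes, the fate that the series was designed around, gave no common direction. Of 35 listed genes 29 were measured and 12 had a mean of 6 or more. Of the 12, 0 were higher and 1 lower in all 3 lines, beside 5.87% and 13.4% of all such genes, and the median difference was 0.13. PAX8, an early otic factor, read 5.39, 5.12 and 6.38 in DFNB and 6.03, 5.73 and 6.22 with the FGFs. PAX2, a factor of the otic placode, read 1.77, 3.12 and 3.57 against 2.13, 4.50 and 4.40, higher in every line by 0.86 ± 0.27 (adjusted p = 0.964), at low values. With values below 4 set to 4 this became 0.30, with 0 in Shef3. GATA3 had differences of -0.47, 0.07 and 0.02, DLX5 of 0.38, 1.68 and -0.31 and EYA1 of -0.72, 0.62 and -1.20. SOX9, which marks otic, neural crest and glial precursors, was the 1 member lower in all 3 lines, by 0.31, 0.62 and 0.22.

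Lens and eye field genes had the highest median of any list, 0.68 over 10 genes with a mean of 6 or more (29 of 31 were measured), but it rested mainly on H14, at 1.80, against -0.13 in Shef3 and 0.50 in Shef1. LHX2, an eye field factor, read 8.27, 3.96 and 9.15 in DFNB and 8.30, 8.44 and 10.39 with the FGFs. The lens factor FOXE3 read 8.53, 3.32 and 7.89 against 9.27, 7.43 and 7.83, and the eye field factor SIX3 read 7.71, 3.37 and 8.51 in DFNB, with differences of -0.51, 3.63 and 1.01. In each of these 3 genes the DFNB array of H14 stood apart below the other day 14 arrays. Without H14 the median of the list was 0.14. SIX6 was higher in every line, with 4.51, 1.20 and 6.07 in DFNB and 5.74, 6.52 and 7.27 with the FGFs (mean difference 2.58 ± 1.02, adjusted p = 0.982). That mean was 1.21 without H14 and 1.64 with values below 4 set to 4. PAX6 had differences of -0.29, 1.79 and 0.42. Only LHX2 among the 10 was higher in all 3 lines, by 0.04 in Shef3, beside 5.87% of all genes with a mean of 6 or more.

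Of 20 neural progenitor genes 4 were higher and 4 lower in all 3 lines, with a median of -0.10, beside 5.87% of all genes higher and 13.4% lower. Beside SOX2, PROM1 was higher, by 0.82, 0.17 and 0.25. PLAGL1, an imprinted zinc finger gene, was lower by 0.65, 0.53 and 1.37, and NR2F1, a nuclear receptor of the caudal and lateral brain, by 0.45, 0.95 and 0.46. Of 15 neuronal genes 0 were higher and 4 lower in all 3 lines, with a median of -0.48 (Shef3 0.32, H14 -1.27, Shef1 -0.44) that was -0.97 without Shef3 and -0.19 without H14. GAP43, a growth cone protein, had differences of -0.14, -1.27 and -1.05 and DLX2, a factor of forebrain interneurons, of -0.39, -0.28 and -1.07.

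Of 13 neural crest genes 6 were lower and 0 higher in all 3 lines, with a median of -0.37, beside 13.4% of all genes lower and 5.87% higher. Beside TWIST1 and SOX9 they included SNAI2, a factor of migrating crest cells, with -0.09, -1.16 and -1.17, and MSX2, with -0.22, -0.26 and -0.34. Of 9 endoderm genes 3 were lower in all 3 lines, again beside 13.4%, led by AFP, the fetal plasma protein, with 9.15, 7.17 and 6.97 in DFNB against 8.04, 6.45 and 5.81 with the FGFs. AFP stood at 10.20, 9.39 and 7.48 at day 0. Of 14 epidermal and simple epithelial genes 7 were lower and 0 higher in all 3 lines, against the same 13.4% and 5.87%, with a median of -0.21. SFN, an epithelial 14-3-3 protein, was lower by 0.50, 0.81 and 0.53, and DSP had -0.43, -0.31 and -0.39. Others counted through small values: the smallest within-line difference was -0.06 for KRT10, -0.06 for PERP and -0.04 for KRT8. The 6 mesoderm genes had a median of -0.66, with HAND1 at -3.67, 0.55 and -1.04. No blood or macrophage gene had a mean of 6 or more.

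Pluripotency genes had no common direction in the 3 pairs of cultures. Of 25 measured, 9 had a mean of 6 or more, with a median difference of 0.41 (Shef3 -0.68, H14 1.34, Shef1 0.25) that was -0.16 without H14. SOX2 and DPPA4 were higher in all 3 lines, as were 5.87% of all genes with such a mean. DPPA4, a gene of pluripotent cells, read 6.70, 8.05 and 10.12 against 7.11, 9.39 and 10.37. NANOG read -10.17, 6.33 and 9.64 in DFNB and -7.62, 7.72 and 9.14 with the FGFs, with far wider gaps between the arrays of a medium than between the media. Averaged over the 9 genes, DFNB stood at 7.50, 8.84 and 10.29 and FGF3+10 at 6.59, 10.04 and 10.58, against 11.45, 11.09 and 10.63 at day 0. In H14 these genes were higher with the FGFs while the mesenchyme genes were lower. In Shef3 both averages were lower with the FGFs. The part of undifferentiated cells in any difference was not tested.

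**Figure D5:**
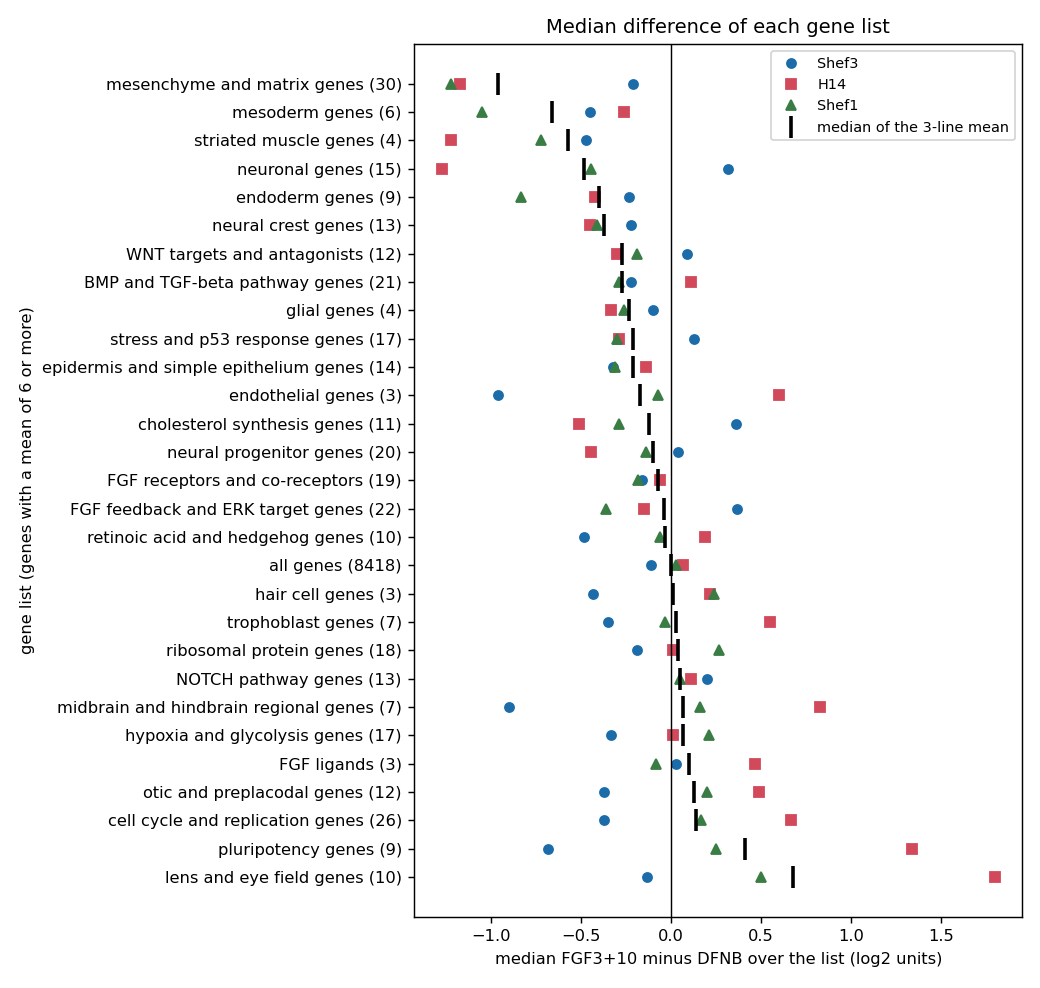
The median difference between FGF3+10 and DFNB, in log2 units, over the genes with a mean of 6 or more in each list (their number in brackets), with 1 point per cell line and a black bar for the median of the 3-line means. Mesenchyme and matrix genes lie lowest at -0.96 with all 3 lines below 0, and lens and eye field genes highest at 0.68 with H14 at 1.80.

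Among signalling pathways the NOTCH list had the most genes higher in all 3 lines, 5 of 13, with 1 lower and a median of 0.05, beside 5.87% of all genes higher and 13.4% lower. Beside DLL1 they were NOTCH1, a receptor, with a mean difference of 0.21, the ligand JAG2 with 0.21, the receptor-modifying enzyme LFNG with 0.52 and the feedback inhibitor NRARP with 0.61, which was 0.27 without H14. For DLL1, NOTCH1 and LFNG the lines disagreed in sign when the mean of the probe sets was taken, so that only JAG2 and NRARP were still higher in every line, and the mean difference of NOTCH1 was then -0.05. Of 21 BMP and TGF-beta pathway genes 5 were lower and 1 higher in all 3 lines. NOG, a secreted BMP antagonist, read 7.15, 7.95 and 7.35 in DFNB against 6.60, 6.81 and 6.90 with the FGFs. Of 12 WNT targets and antagonists 0 were higher and 1 lower, and of 10 retinoic acid and hedgehog genes CYP26A1 alone was higher in all 3 lines.

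Of 26 cell cycle and replication genes 24 had a mean difference above 0, beside 4151 of all 8418 genes with a mean of 6 or more. The median, however, was 0.14 and the lines differed, with -0.37 (Shef3), 0.67 (H14) and 0.17 (Shef1), and without H14 the median was -0.08. In the hypoxia and glycolysis list 1 of 17 was higher and 3 were lower in all 3 lines, beside 5.87% and 13.4% of all genes. NDRG1, a stress-induced gene, was lower by 0.72, 1.13 and 0.51, and P4HA1, which hydroxylates collagen, by 0.46, 0.55 and 0.34, while HK2, a hexokinase, was higher by 0.30, 0.53 and 0.38. The stress and p53 response list had 0 of 17 higher and 5 lower, against the same 5.87% and 13.4%, with a median of -0.21. The cholesterol synthesis list had 0 of 11 either way and a median of -0.12, and the ribosomal protein list 0 of 18 either way and a median of 0.04.

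The remaining lists were small. Medians were -0.57 over 4 striated muscle genes, -0.23 over 4 glial genes, -0.17 over 3 endothelial genes, 0.01 over 3 hair cell genes, 0.03 over 7 trophoblast genes and 0.07 over 7 midbrain and hindbrain genes. Of the hair cell list PCP4 was lower, by 0.59, 0.86 and 1.57, and COCH, the cochlear matrix protein, was higher, by 0.18, 1.64 and 0.58. The 2 HOX genes with a mean of 6 or more were HOXB3, with differences of -1.57, 0.30 and -1.35, and HOXB2, with -0.90, 0.18 and -0.75.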

How the data were processed

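Total RNA was amplified by the 3' IVT method, labelled with biotin and hybridised to Affymetrix arrays, per the labels' protocols. The deposited values were read as log2. They ran from -14.4 to 13.3, and the median of the first array, Shef3 at day 0, was 3.20. Which software, probe summary, background correction and log base were used is not given in the sources used here. An array has no read depth, so the number of arrays limits the precision.

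Of 54675 probe sets, 41091 named 1 gene in the platform annotation, 1801 named several and 11721 besides 62 controls had no gene listed. Entrez identifiers gave current symbols (41043 matched), and each of 19775 genes was read from its probe set of highest mean in the 9 arrays. The members and gene lists were chosen with earlier results of these data known.

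Linear models (lmFit and eBayes of limma 3.58.1, R 4.3.3) were fitted to the 6 day 14 arrays with medium and, as a block, cell line, with Benjamini-Hochberg adjustment across the 19775 genes. Every value after ± is the moderated standard error of this fit, which draws on the variance of all genes and not on 3 pairs alone. The pairing comes from the cell line in the labels. Deviations from the group means, over genes with a mean of 6 or more, correlated within lines at 0.553 (Shef3), 0.454 (H14) and 0.916 (Shef1), and at -0.721 to 0.471 between lines. The script was tested on simulated data. Gene lists are described by counts and medians. The genes named are the 14 in each direction with the largest smallest-line difference, up to 5 such members of each list (otherwise the 2 with the largest mean difference), and a fixed set of FGF, otic, eye and pluripotency genes. Further members of a list and the collagen family were added after their values were seen. P-values measure the spread between single cultures of 3 lines.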

Additional observations from a re-analysis of the deposited data

How the results depend on the processing

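The count of genes called stayed at 0 under every alternative run. The number at an unadjusted p below 0.05 was 352 with no replicate block and 536 and 299 with all 9 arrays, with and without the replicate block; 0 genes were called in each of these fits. It was 981 after quantile normalisation, 984 with the mean of probe sets, 331 with values below 4 set to 4, 254 with only genes with a mean of 6 or more, and 730 with a prior variance that follows the level. Leaving out Shef3, H14 or Shef1 gave 1968, 935 and 732, with 0 called each time, the range of calls being 0 to 0.

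Genes shifted by 1 or more in all 3 lines numbered 52 higher (0.263%) and 79 lower (0.399%) over all genes, but 2 and 6 with values below 4 set to 4 and 1 and 5 with only genes with a mean of 6 or more, so most of them lay at low values. Over all genes the correlation between lines was -0.164 for Shef3 and H14, -0.095 for Shef3 and Shef1 and 0.266 for H14 and Shef1, and with the mean of probe sets the last was 0.464. The count of mesenchyme genes lower in every line, a check chosen after seeing the data, was 19 to 22 of 30 under the other scalings and probe rules and 22 to 30 without a line. After quantile normalisation it was 19 of 30, beside 8.61% of all genes.

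Of 121 named genes, 23 changed direction when a line was left out, in ranges of -0.03 to 0.76 (SPRY2), -0.39 to 0.85 (SPRY4), -0.30 to 0.79 (DUSP6), -0.52 to 0.74 (ETV4), -0.39 to 0.59 (ETV5), -0.04 to 0.13 (SPRED1), -0.40 to 0.57 (FGFR2), -0.19 to 1.47 (FGF8), -0.16 to 0.33 (FGF13), -0.06 to 0.22 (FGF11), -0.23 to 0.04 (GATA3), -0.33 to 0.43 (S100A4), -0.25 to 0.13 (COL2A1), -0.21 to 0.64 (ESRP1), -0.35 to 0.12 (IFT172), -1.55 to 0.01 (EDN1), -1.16 to 1.24 (DLK1), -0.26 to 1.46 (NR6A1), -0.34 to 1.30 (TNNT1), -0.05 to 0.94 (ADSS1), -0.65 to 1.21 (GALNT12), -0.13 to 0.04 (IER2) and -0.18 to 1.68 (PMEL). The mean of probe sets gave 0.09 for ETV4, -0.03 for SPRED1, -0.35 for FGF11, 0.53 for DLK1, 0.33 for EYA1 and -0.05 for NOTCH1, the floor of 4 gave 0.49 for ETV4, and quantile normalisation gave 0.02 for FGFR2 and 0.04 for COL2A1, each opposite in sign to the mean difference otherwise found; the cause was not tested. With values below 4 set to 4, ETV4 and TTR in Shef1 and MIR302B, FGFR4 and PAX2 in Shef3 had a difference of 0.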

Other observations

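Of the genes with a mean of 6 or more, 36.5% were lower in Shef3 and higher in H14 and Shef1 and 16.9% the reverse. These shares count signs of any size, and the median differences over the same genes were -0.11, 0.07 and 0.03. The 6 genes of each kind with the largest smallest difference were chosen after their values were seen. COL8A1, a short-chain collagen, read 8.12, 9.73 and 9.58 in DFNB (Shef3, H14, Shef1) and 9.97, 6.57 and 7.72 with FGF3 and FGF10. PAPPA, a protease that frees IGFs from their binding proteins, read 9.09, 10.14 and 9.18 against 10.42, 7.56 and 7.44. ADAMTS5, a matrix protease, had differences of 1.66, -1.87 and -1.68, PHLDA2, an imprinted growth regulator, of 1.51, -2.24 and -2.08, EDN1, endothelin 1, of 1.46, -1.43 and -1.67, and TTR, the thyroxine carrier transthyretin, of 1.43, -2.12 and -1.49. These 6 genes were higher in Shef3 and lower in H14 and Shef1, a pattern that 17 genes had by at least 1 in each line.

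The reverse pattern was held by 3 genes by at least 1 in each line, namely DLK1, NR6A1 and TNNT1. DLK1, an imprinted inhibitor of NOTCH signalling, read 11.95, 9.95 and 9.61 in DFNB and 8.62, 10.96 and 11.08 with the FGFs. NR6A1, a nuclear receptor of early embryos, had differences of -1.58, 1.86 and 1.06, and TNNT1, a slow muscle troponin, of -1.71, 1.57 and 1.03. In at least 1 line the difference stayed below 1 for ADSS1, an enzyme of purine synthesis, with 6.36, 5.78 and 5.56 in DFNB and 5.36, 6.76 and 6.45 with the FGFs, GALNT12, a glycosyltransferase, with differences of -2.19, 1.54 and 0.89, and PMEL, a pigment cell protein, with differences of -1.20, 2.52 and 0.83. With 1 array per line and medium the difference between lines was not tested.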
